A study of Mus musculus with 8 samples.

Results

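Neurexins, neuroligins and calsyntenins are synaptic adhesion proteins. The 9 genes listed here were Nrxn2, Nrxn3, Nlgn1, Nlgn2, Nlgn3, Clstn1, Clstn2, Clstn3 and Lrrtm2, the last a gene of a neurexin ligand outside these families. Members were the probe sets that named exactly 1 of these genes, and 8 of the 9 genes had such probe sets, 170 of the 228454 probe sets that named a single gene. No probe set was matched to Nrxn2, which was not analysed here. The study compared the cortex of wild type CD1 mice with that of Nova2 knockout (Nova2 KO) CD1 mice at postnatal day 10, with 4 mice in each group and 1 exon array per mouse. The knocked-out allele, the part of Nova2 that it removes and the sex of the mice are not given in the sources used here. An exon array reads each gene through several short probe sets, so that a single exon can be set against the rest of its gene.

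Neurexins sit on the presynaptic membrane and bind neuroligins and leucine-rich repeat proteins such as Lrrtm2 across the synaptic cleft. Neurexin transcripts are spliced in many forms, and which partner a neurexin binds depends in part on the form. Calsyntenins are cadherin-related membrane proteins that take part in synapse formation and in axonal transport. The RNA-binding protein Nova2 acts in neurons, where it controls alternative exons, many of them in genes of synaptic proteins. The question asked of these genes was therefore whether their total transcript or the use of their single exons differed without Nova2.

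With limma's fit per gene and per probe set, none of the 8 genes passed at the level of the gene, and none of their 166 tested probe sets passed at the level of the exon. The diffSplice test of limma, tried as an alternative, called 2 of the 166, both in Clstn1, and 0.259% of all probe sets. The largest exon-level difference was that of a bright Clstn1 probe set, which was 1.68-fold lower relative to its gene in Nova2 KO. It was lower on all 4 Nova2 KO arrays than on any wild type array, and it had the lowest p of the 166. Over all probe sets, 4.12% had groups that did not overlap. The estimated differences of the genes' overall levels were at most 1.17-fold. Clstn3 was farthest from 0, at -0.22 log2 with a 95% interval of -0.48 to 0.037.

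As a check of the labels, Nova2 was read first. Its probe set 5294108 lay between 8.53 and 8.87 log2 on the wild type arrays and between 6.28 and 7.26 log2 on the Nova2 KO arrays. The difference was -1.82 log2 (SE 0.22, n = 4 per group, limma adjusted p = 0.000188 over the 16 kept Nova2 probe sets, and 0.0786 over all kept probe sets). Probe set 4414499 was higher on all 4 Nova2 KO arrays (0.70 log2, limma adjusted p = 0.00306 over the 16), and the other 14 did not pass. Probe sets outside the deleted part check nothing, and which of the 16 lie inside it is not known here. Probe set 5294108 was taken for the check because its p was the lowest of the 16. Array medians ran from 7.02 to 7.37 log2, and the 2 arrays numbered 4 had the lowest, 7.02 log2 for wild type and 7.06 log2 for Nova2 KO. The 5 measured markers of excitatory cortical neurons had a median difference of 0.23 log2, 4 higher and 1 lower in Nova2 KO, none called. In wild type the measured markers ran from 7.59 to 12.17 log2 for excitatory neurons and from 7.52 to 11.29 log2 for interneurons. Slc17a7, the vesicular glutamate transporter of excitatory neurons, was the highest of its list. Gad1, which makes the transmitter GABA, was at 10.26 log2. Among 9 marker lists, that of oligodendrocytes held the only called gene (Mog), and the median over its 6 measured genes, all lower in Nova2 KO, was -0.54 log2. Ttr, the transthyretin gene of the choroid plexus, was bright in both groups, at 13.18 log2 in wild type and at 13.26 log2 in Nova2 KO. Of the same list, choroid plexus and meninges, Kl was at 7.07, Col1a1 at 9.34 and Dcn at 9.40 log2 in wild type. Kl differed by -0.070 log2. How much choroid plexus the samples held was not tested. The 5 astrocyte markers had a median difference of -0.0084 log2. The part of shifted cell types in the results below was not tested. In tissue RNA, fewer cells of a type and less RNA per cell cannot be told apart.

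A gene value was taken per array as the median log2 signal of the gene's kept probe sets and tested for all 11992 genes with limma and Benjamini-Hochberg adjustment at 0.05. Over all genes 25 passed (0.208%), and 1389 had an unadjusted p under 0.05 (11.6%). Of the 8 genes here, 0 passed and 0 had an unadjusted p under 0.05. The 4 Nova2 KO values were wholly separate from the 4 wild type values in 907 of all genes (7.56%) and in 0 of the 8. The median difference was -0.047 log2 over the 8 genes and 0.022 log2 over all genes. Of the 8, 6 were lower in Nova2 KO, while 44.6% of all genes were lower. Single arrays moved this count and the median: without Nova2 KO 4, 2 of the 8 were lower and the median was 0.041 log2, and without wild type 4, 8 were lower and the median was -0.11 log2. The count was 4 without wild type 2 or without wild type 3, with medians of 0.014 and -0.013 log2.

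Nrxn3, the neurexin read here through 34 probe sets, had gene values of 9.64, 9.94, 9.81 and 9.41 log2 on wild type arrays 1 to 4. On Nova2 KO arrays 1 to 4 it was at 9.69, 9.68, 9.93 and 9.39 log2. The groups overlapped over nearly their whole range, and the lowest array of each was its array 4. The difference was -0.029 log2 (SE 0.14, 95% interval -0.33 to 0.27, limma adjusted p = 0.966).

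The neuroligins are the postsynaptic receptors of neurexins. Nlgn1, found mainly at excitatory synapses, was at 8.85, 9.39, 9.38 and 9.07 log2 in wild type and at 9.03, 9.49, 9.11 and 9.10 log2 in Nova2 KO. Nova2 KO array 2 stood above the other 3 Nova2 KO arrays, and the groups overlapped. The difference was 0.0088 log2 (SE 0.14, 95% interval -0.30 to 0.32, limma adjusted p = 0.989).

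Nlgn2, the neuroligin of inhibitory synapses, was at 9.97, 10.05, 10.06 and 9.87 log2 in wild type and at 10.13, 9.92, 10.04 and 9.59 log2 in Nova2 KO. Nova2 KO array 4 was the lowest of the 8 and Nova2 KO array 1 the highest, so the groups overlapped. The difference was -0.063 log2 (SE 0.12, limma adjusted p = 0.881). Nlgn3, an X-linked neuroligin of both kinds of synapse, was at 10.59, 10.74, 10.67 and 10.50 log2 in wild type and at 10.66, 10.68, 10.57 and 10.38 log2 in Nova2 KO. Its interval was the narrowest of the 8 genes, with a difference of -0.050 log2 (SE 0.10, 95% interval -0.27 to 0.17, limma adjusted p = 0.887).

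All 3 calsyntenins were lower on average in Nova2 KO, none past the threshold. Clstn1, which also links vesicles to kinesin-1, was at 11.72, 11.80, 11.82 and 11.49 log2 in wild type and at 11.67, 11.54, 11.70 and 11.44 log2 in Nova2 KO (difference -0.12 log2, SE 0.11, limma adjusted p = 0.711). Clstn2 was at 9.79, 10.09, 10.06 and 9.44 log2 in wild type and at 10.02, 9.98, 9.70 and 9.51 log2 in Nova2 KO (difference -0.043 log2, SE 0.16, limma adjusted p = 0.951). Its interval was the widest, -0.39 to 0.30 log2, and wild type array 4 was the lowest of the 8 arrays.

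Clstn3, a calsyntenin that binds neurexins, was at 11.10, 11.22, 11.22 and 10.87 log2 in wild type. In Nova2 KO it was at 11.02, 10.99, 10.88 and 10.63 log2. Of the wild type arrays, 3 lay above every Nova2 KO array, and wild type array 4 fell among them. The difference was -0.22 log2 (SE 0.12, 95% interval -0.48 to 0.037, limma adjusted p = 0.498), -0.14 log2 without Nova2 KO 4 and -0.30 log2 without wild type 4. By probe set the Clstn3 signals leaned the same way, with 20 of 21 lower in Nova2 KO. For Clstn1 it was 21 of 25 and for Clstn2 25 of 31. In Nlgn1, by contrast, 11 of 22 were lower. Over all 169 kept probe sets of the 8 genes 71.6% had the lower mean signal in Nova2 KO, and over all kept probe sets of the arrays 48.9%. Single arrays moved these shares. Without Nova2 KO 4, 57 of the 77 calsyntenin probe sets were lower and 40.4% of all. Without wild type 4, it was 71 of the 77 and 58.4% of all. Probe sets of a gene read the same 8 RNA samples, so these shares are not independent measurements.

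Lrrtm2, a postsynaptic ligand of neurexins, was read through 3 probe sets and was too thinly covered for an exon-level test. It was at 10.61, 10.37, 10.50 and 9.91 log2 in wild type and at 10.58, 10.49, 10.21 and 10.42 log2 in Nova2 KO. Wild type array 4 was the lowest of the 8 arrays, and the groups overlapped. The difference was 0.078 log2 (SE 0.15, limma adjusted p = 0.879), and without wild type array 4 it was -0.069 log2.

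**Figure D1:**
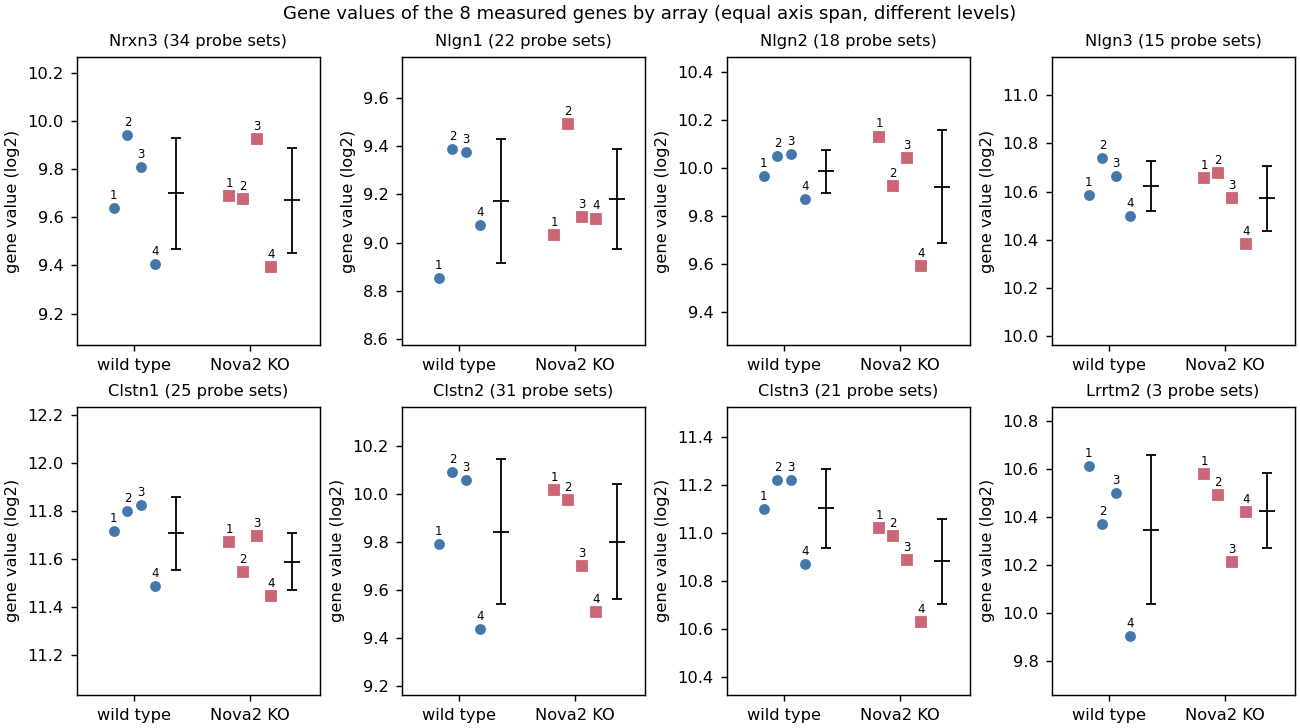
Gene value (log2, median over the probe sets of a gene) of each of the 8 measured genes on every array, with array numbers beside the points and the mean ± SD of 4 arrays at the right of each group. The groups overlap in all 8 genes; every panel spans the same log2 range but is placed at the level of its own gene.

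Levels of different genes were not set against each other, since the probe sets of an array differ in brightness for reasons other than transcript number. The widest 95% interval among the 8 genes reached 0.34 log2 to either side of its estimate and the narrowest 0.22 log2. These intervals are not adjusted over all genes, so a difference beyond them can still miss a call. Array 4 was the lowest array of its group for 7 of the 8 genes in wild type and for 6 of the 8 in Nova2 KO. The same 2 arrays had the lowest medians over all probe sets.

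The genes whose values followed Clstn3 most closely over the 8 arrays were Atp2b2, a plasma membrane calcium pump (Pearson r = 0.989, Spearman rho = 0.976), Speg, a muscle-type kinase (r = 0.988, rho = 0.952), and Cstf2, a factor of mRNA 3-prime end formation (r = 0.988, rho = 0.952). They were chosen for that likeness out of 11992 genes, so no p is given, and 295 genes had an r above 0.9 with Clstn3. Without wild type array 3 and Nova2 KO array 4, the 2 arrays farthest from the Clstn3 median, r was 0.979, 0.974 and 0.991. All these values share the arrays and their overall brightness.

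Exon usage was read as an index, in which each array's gene value was subtracted from the log2 signal of the probe set. It needed 5 or more kept probe sets in a gene. It was fitted over 195014 probe sets, of which 26 passed (0.0133%), 13178 had an unadjusted p under 0.05 (6.76%) and 8026 had groups that did not overlap (4.12%). Of the 166 probe sets of the 7 genes here, 0 passed, 11 had an unadjusted p under 0.05 (6.63%) and 7 did not overlap between groups (4.22%). These shares lie next to those over all probe sets. The median size of the difference, sign ignored, was 0.093 log2 over the 166 and 0.12 log2 over all. By gene, with the Simes p over the limma p-values of its probe sets, 18 of 11187 genes passed (0.161%) and 0 of the 7. On the signals themselves, without division by the gene, 20 of 293697 probe sets passed (0.00681%) and 0 of 169.

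**Figure D2:**
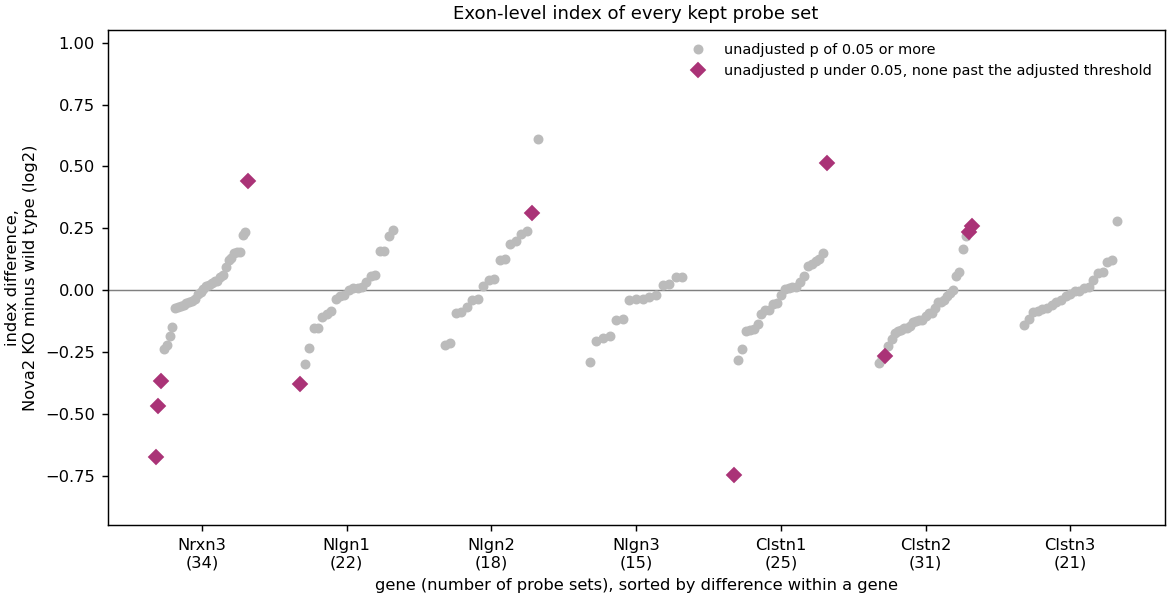
Difference of the exon-level index, Nova2 KO minus wild type (log2), for each of the 166 probe sets of the 7 genes with an exon-level test, sorted within a gene; diamonds mark the 11 with an unadjusted p under 0.05. Most points lie within 0.25 log2 of 0, and the lowest is a Clstn1 probe set at -0.74 log2.

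Clstn1 held the probe set with the lowest p of all 7 genes. The signal of probe set 4750032 was 11.87, 11.70, 11.93 and 11.40 log2 on wild type arrays 1 to 4 and 11.15, 11.02, 10.63 and 10.65 log2 on Nova2 KO arrays 1 to 4. Every Nova2 KO value lay below every wild type value, also for arrays 4, whose overall brightness was low. The signal difference was -0.86 log2 (SE 0.18, limma adjusted p = 0.399), against -0.12 log2 for the gene. The index was 0.018 ± 0.13 log2 (SD, n = 4) in wild type against -0.73 ± 0.26 log2 in Nova2 KO, a difference of -0.74 log2 (SE 0.14, 95% interval -1.06 to -0.43, unadjusted p = 0.000538, limma adjusted p = 0.42).

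A further Clstn1 probe set, 4991052, differed the other way. It was dim, at 7.49, 8.04, 7.76 and 7.46 log2 in wild type and at 8.30, 7.61, 8.43 and 8.004 log2 in Nova2 KO. On Nova2 KO arrays 2 and 4 its signal lay within the wild type range. Its index was -4.02 ± 0.19 log2 (SD, n = 4) in wild type against -3.50 ± 0.29 log2 in Nova2 KO, a difference of 0.51 log2 (SE 0.16, limma adjusted p = 0.661). The other 23 Clstn1 probe sets had an unadjusted p of 0.05 or more, and 22 of the 25 differed by less than 0.25 log2.

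The Clstn1 probe sets were called by diffSplice. It pools the spread over all exons of a gene and sets each exon against the other exons of the gene rather than against the median, so it differs from the index in more than 1 way. The pooling counts probe sets of the same arrays as separate measurements and gives a dim probe set the spread of its whole gene. DiffSplice called both probe sets, 4750032 at -0.73 log2 (adjusted p = 0.00197) and 4991052 at 0.58 log2 (adjusted p = 0.0455). The unadjusted p of 4991052 was 0.0122 in the per-probe-set limma fit and 0.000112 by diffSplice. DiffSplice called 506 of 195014 probe sets in all (0.259%) and, by Simes, 442 of 11187 genes (3.95%), among the 7 genes here only Clstn1 (adjusted p = 0.00288). Under the per-probe-set fit the adjusted p of 4750032 did not fall below the threshold in any setting tried, and its index difference stayed between -0.81 and -0.63 log2.

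In Nrxn3, 4 of 34 probe sets had an unadjusted p under 0.05, 3 of them lower in Nova2 KO. Such a p was held by 6.76% of all probe sets and by 6.63% of the 166 here. The gene's Simes p was 0.0438 (0.587 adjusted over all genes). Probe set 5508072 was at 10.85, 10.84, 11.02 and 10.52 log2 in wild type and at 10.42, 10.14, 10.70 and 9.98 log2 in Nova2 KO. Its signals overlapped through Nova2 KO array 3, but its index did not overlap, at 1.11 ± 0.15 log2 (SD, n = 4) in wild type against 0.64 ± 0.14 log2 in Nova2 KO. The index difference was -0.47 log2 (SE 0.11, limma adjusted p = 0.553).

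Probe set 5110975 of Nrxn3 was at 9.02, 9.14, 9.20 and 8.99 log2 in wild type and at 8.40, 8.39, 9.03 and 7.72 log2 in Nova2 KO. Nova2 KO array 3 was within the wild type range and Nova2 KO array 4 far below the rest. The index difference was -0.68 log2 (SE 0.16, limma adjusted p = 0.553), -0.80 log2 without Nova2 KO array 3 and -0.55 log2 without Nova2 KO array 4. The third lower probe set, 5405625, was at 9.21, 9.34, 9.30 and 8.89 log2 in wild type and at 8.75, 8.41, 9.36 and 8.64 log2 in Nova2 KO. Nova2 KO array 3 was again the highest of its group, here above all wild type arrays (index difference -0.37 log2, SE 0.15, limma adjusted p = 0.717). This probe set was named after its values were seen.

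One Nrxn3 probe set, 5551196, was higher in Nova2 KO, at 8.03, 8.40, 8.64 and 7.92 log2 against 7.63, 8.44, 7.94 and 7.34 log2 in wild type. Its index difference was 0.44 log2 (SE 0.15, limma adjusted p = 0.675), with wild type array 2 among the Nova2 KO arrays. The other 30 probe sets of the gene differed by less than 0.25 log2. Which exons these probe sets cover was not analysed here.

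**Figure D3:**
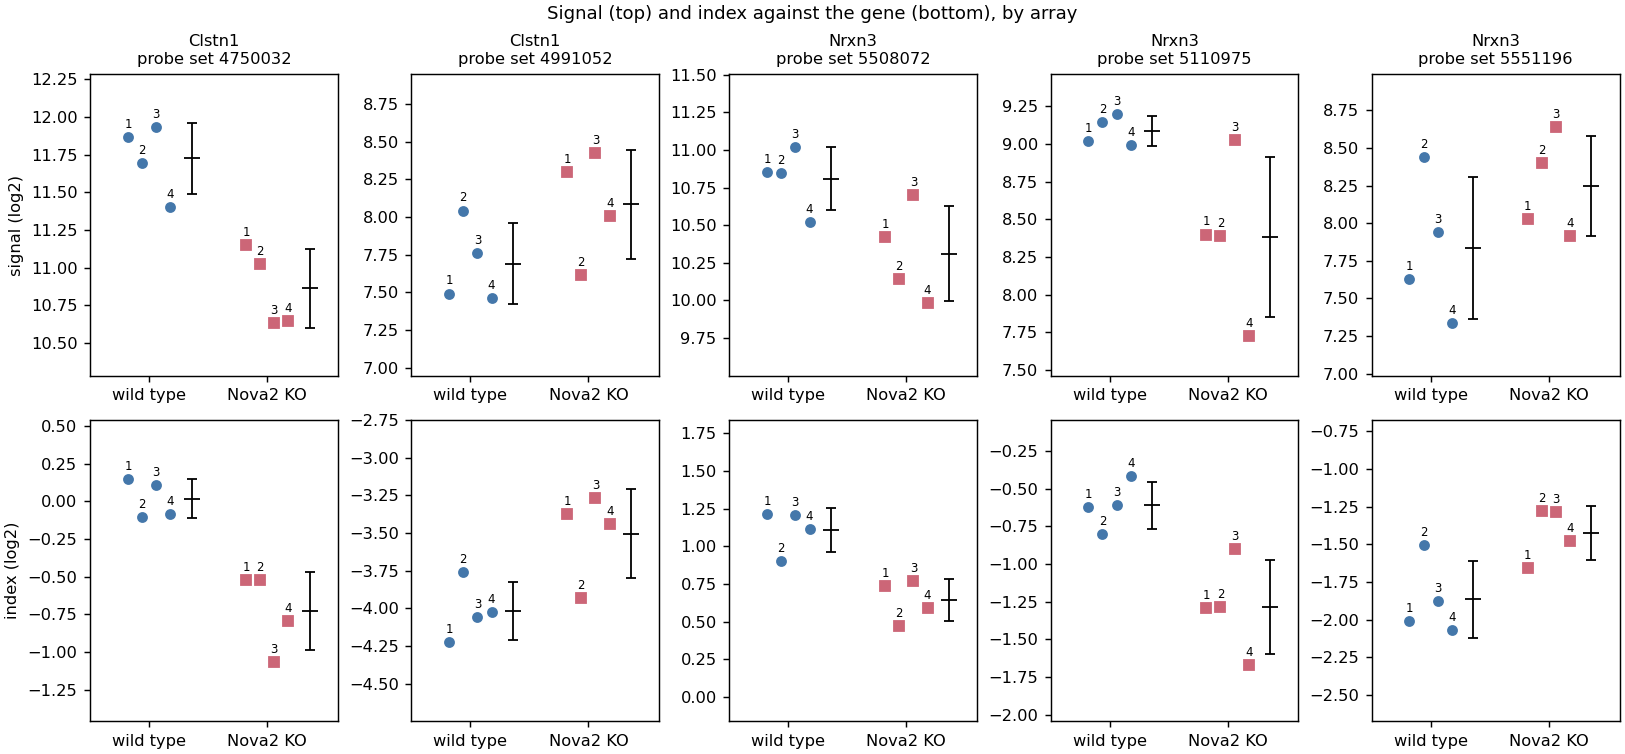
Signal (top, log2) and index against the gene (bottom, log2) of 2 Clstn1 and 3 Nrxn3 probe sets on each array, with array numbers and the mean ± SD of 4 arrays per group. Clstn1 probe set 4750032 is lower on all 4 Nova2 KO arrays in both rows; for Nrxn3 probe set 5110975, Nova2 KO array 3 lies near the wild type arrays in the top row.

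The 3 neuroligins together had 2 probe sets with an unadjusted p under 0.05: 1 of 22 in Nlgn1, 1 of 18 in Nlgn2 and 0 of 15 in Nlgn3. Over all probe sets the share was 6.76%. Probe set 4596156 of Nlgn2 had a signal of 11.08, 11.08, 11.13 and 10.66 log2 in wild type and 11.36, 11.19, 11.53 and 10.86 log2 in Nova2 KO. Its index did not overlap between groups, at 1.00 ± 0.14 log2 (SD, n = 4) and 1.31 ± 0.12 log2, a difference of 0.31 log2 (SE 0.11, limma adjusted p = 0.675). The largest neuroligin difference, 0.61 log2 in Nlgn2 probe set 5607295, had a larger error (SE 0.37, limma adjusted p = 0.796) and a dim signal of 5.73 to 7.73 log2; it was named after its value was seen.

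Probe set 4661083 of Nlgn1 was at 7.32, 8.08, 7.70 and 7.03 log2 in wild type and at 7.12, 7.27, 7.16 and 7.09 log2 in Nova2 KO. The wild type arrays varied far more than the Nova2 KO arrays (index difference -0.38 log2, SE 0.16, limma adjusted p = 0.73). The leading Nlgn3 probe set, 5101576, was at 11.23, 11.30, 11.29 and 10.99 log2 in wild type and at 11.15, 11.05, 10.99 and 10.68 log2 in Nova2 KO, with an index difference of -0.19 log2 (SE 0.085, limma adjusted p = 0.746). In Nlgn3 no probe set had an unadjusted p under 0.05, and 14 of 15 differed by less than 0.25 log2.

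In Clstn2, 3 of 31 probe sets had an unadjusted p under 0.05, where 6.76% of all probe sets did. Probe set 5147342 was at 10.44, 10.63, 10.82 and 10.32 log2 in wild type and at 10.46, 10.40, 10.07 and 10.07 log2 in Nova2 KO (index difference -0.26 log2, SE 0.10, limma adjusted p = 0.712). The others with such a p, 5144036 and 4500216, named after their values were seen, had index differences of 0.24 and 0.26 log2. The index did not overlap between groups for 3 of the 31, where 4.12% of all probe sets did not. These were 5144036, 5137332 and 5610008, and the last 2 had a limma unadjusted p of 0.0833 and 0.0844. In Clstn3 the 21 index differences ran from -0.14 to 0.28 log2 and none had an unadjusted p under 0.05. The highest of them, 0.28 log2 (SE 0.18, limma adjusted p = 0.802), was that of probe set 4993905, whose signal of 5.67 to 6.44 log2 was the dimmest of the gene. Leaving out wild type 1 gave 0.12 log2, and leaving out wild type 4 gave 0.43 log2.

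A list of 42 genes held binding partners and scaffolds of these adhesion proteins and genes linked to such partners, and 35 had a gene value. None of them passed over all genes (limma), 5 had an unadjusted p under 0.05, 3 higher and 2 lower in Nova2 KO, where 11.6% of all genes had such a p. The median was -0.0088 log2 against 0.022 log2 over all genes. Lin7c, an adaptor in a complex with Cask below neurexins, was at 9.98, 10.21, 10.15 and 9.96 log2 in wild type and at 10.48, 10.67, 10.73 and 10.67 log2 in Nova2 KO. All Nova2 KO values were above all wild type values, with a difference of 0.56 log2 (SE 0.10, limma adjusted p = 0.0528). Dlg3, a postsynaptic scaffold of the PSD-95 family, was at 9.89, 10.05, 10.10 and 9.68 log2 in wild type and at 9.35, 9.43, 9.28 and 9.09 log2 in Nova2 KO. It did not overlap either (difference -0.64 log2, SE 0.12, limma adjusted p = 0.0584). The Lin7c value passed in 4 of 17 other settings and that of Dlg3 in 5 of 17.

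The other 4 partners with the lowest p were Nxph1, a secreted ligand of neurexins (0.41 log2, SE 0.11, limma adjusted p = 0.205), Flrt3, a ligand of latrophilins (0.39 log2, SE 0.12), C1ql3, a secreted C1q-like protein (-0.35 log2, SE 0.14), and Cbln1, which bridges neurexins and delta glutamate receptors (0.29 log2, SE 0.15). For Nxph1 and Flrt3, as for Lin7c and Dlg3, the groups did not overlap, where 7.56% of all genes did not. Without Nova2 KO 3, C1ql3 was at -0.21 log2 and Cbln1 at 0.16 log2. In exon usage 1 of the 35 partners passed by Simes, where 0.161% of all genes did: the inhibitory scaffold gene Gphn, which binds Nlgn2 (limma adjusted p = 0.00735). The next were Nxph1 (0.342), Adgrl3, a latrophilin (0.511), and Dlg3 (0.518). The Gphn call was lost without wild type 1, without wild type 3, without Nova2 KO 3 and without both arrays numbered 4.

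**Figure D4:**
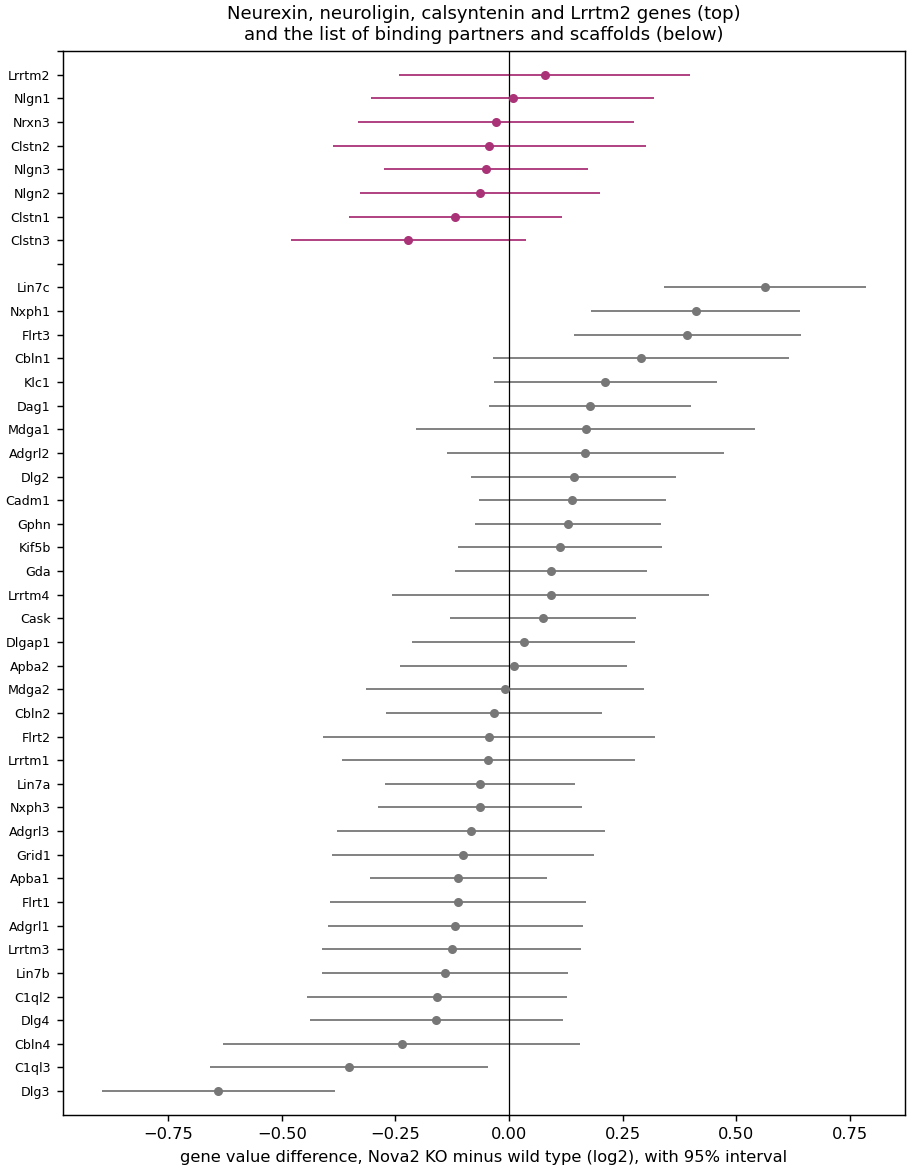
Difference of the gene value, Nova2 KO minus wild type (log2), with its 95% interval from limma, for the 8 measured genes (top) and 35 genes of the partner list (below), each sorted by difference. All 8 intervals at the top include 0; those of Lin7c, Nxph1 and Flrt3 lie above 0 and those of Dlg3 and C1ql3 below it, before adjustment over all genes.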

How the data were processed

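The authors deposited 1 log2 value per array for each of 391597 probe sets, made with PLIER per the submitters' processing notes. Its version, the background correction, the normalization and the genome build are not given in the sources used here. No coordinates are printed. Values were used as deposited. Nothing in the labels says how the mice were related, so p-values measure the spread between these arrays. The precision is limited by the number of arrays, which have no read depth.

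Gene names came from the platform annotation, with 2203 of 13017 symbols updated through mouse gene synonyms. A filter required a mean signal of over 5.86 log2, the 25th percentile, and kept 169 of 170 for these genes (1 of Nlgn1 was left out). A gene value needed 3 kept probe sets. The fits across all genes or probe sets used R 4.3.3 and limma 3.58.1 (lmFit, eBayes, two-sided, Nova2 KO minus wild type), and were tested on simulated data. Figures used matplotlib 3.10.9.

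Members, lists and tests were chosen with earlier results of these data known. Each gene was named with its probe set of lowest index p, plus any that passed and the 3 with the next lowest p. From the partner list, the 6 lowest gene p and the 4 lowest Simes p were named. Alternatives were filters, normalizations, the mean over probe sets, an offset of 1, the replicate number, diffSplice and left-out arrays.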

Additional observations from a re-analysis of the deposited data

Results flagged for a closer look

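Among 56 groups of 4 arrays tested for a value standing apart from the other 3 (Dixon's test, 95% level), 4 did so, where chance gives about 1 in 20. They were the Nlgn1 gene value on Nova2 KO 2 (9.49 log2, others 9.03 to 9.11), the Nlgn2 signal of probe set 4596156 on wild type 4 (10.66 log2, others 11.08 to 11.13), its index on Nova2 KO 3 (1.48 log2, others 1.23 to 1.27) and the Clstn3 signal of probe set 4993905 on wild type 1 (5.67 log2, others 6.24 to 6.36).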

How the results depend on the processing

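The counts of called genes, probe sets and signals among the 8 genes were 0 in each of 17 other settings, the replicate block included, and diffSplice gave 2 probe sets and 1 gene. On the partner list the main count of gene values was 0. It was 1 with the filter at the 50th percentile, quantile normalization, median centring or the mean over probe sets, and 2 with the array median as a covariate or with the replicate block. Leaving out single arrays gave 0 to 1, both for gene values and for exon usage by Simes of the partner list, and the latter was 0 without both arrays numbered 4. Deviations of same-numbered arrays correlated at 0.143, 0.333, 0.024 and 0.565, and those of different-numbered arrays at -0.457 to 0.276. The same-numbered Nova2 KO array was the closest match for wild type 1, 2 and 4. Wild type 3 was closest to Nova2 KO 2, at 0.276. Whether the replicate numbers of the titles pair the arrays was not tested. Differences near 0 changed sign. With the mean over probe sets, Nlgn1 was at -0.020 and Nlgn2 at 0.013 log2, and without both arrays numbered 4, Nlgn2 was at 0.0080 and Lrrtm2 at -0.067 log2. Leaving out single arrays moved Nrxn3 between -0.13 and 0.064, Nlgn1 between -0.098 and 0.081, Nlgn2 between -0.13 and 0.047, Nlgn3 between -0.092 and 0.013, Clstn2 between -0.18 and 0.054, Lrrtm2 between -0.069 and 0.17 log2 and the signal of Clstn3 probe set 4993905 between -0.10 and 0.14 log2. Clstn1 and Clstn3 kept their direction in all 17, with single arrays left out at -0.19 to -0.070 and -0.30 to -0.14 log2. Clstn3 had an unadjusted p under 0.05 in 6 of the 17. Over all genes the number called ran from 6 (without wild type 1) to 80 (replicate block), and over all index values from 2 (without both arrays numbered 4) to 43 (mean over probe sets). The floor of the values was 4 log2, and no probe set of the 8 genes was at it on any array. Differences of the dimmest signals may be understated near the floor, which was not tested.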
